A study of Mus musculus with 2 samples.

Results

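The immunity-related GTPases (IRGs) and the guanylate-binding proteins (GBPs) are GTPases that cells make in large amounts after exposure to interferon, above all interferon gamma. They collect on the membranes of vacuoles that hold parasites or bacteria and help to break these vacuoles open. Among the IRGs of the mouse, effectors with a lysine in the nucleotide-binding loop attack the vacuole, and regulators with a methionine there keep the effectors off the cell's own membranes. GBPs assemble into coats on vacuoles and on bacteria, and some of them are anchored to membranes by a lipid attached to their last residues.

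10 of these genes were followed here: the IRG regulators Irgm1, Irgm2 and Igtp, the IRG effectors Iigp1, Tgtp1 and Tgtp2, and the GBP genes Gbp2, Gbp3, Gbp5 and Gbp7. They were picked by symbol from the 16190 genes of the deposited count table, with their high values in 1 of the libraries already known, so the difference between libraries in these genes is a description and carries no test. The RNA came from cells labelled as satellite cells, the stem cells of skeletal muscle, of the tibialis anterior of mice labelled C57BL/6. 1 library was from mice labelled Cipc-scko, where the series title speaks of a deletion of Cipc limited to satellite cells, and 1 was from mice labelled Cipc-flox/flox, which carry floxed Cipc alleles and are the control. The sample titles give the same libraries as Cipc-/- and Cipc+/+. The sources used here do not give the Cre driver, the age and number of the mice, any culture of the cells or any exposure to interferon. The series title also names mdx mice, a model of muscular dystrophy, which neither sample label does.

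The count table held 16830168 counts for Cipc scko and 16145870 for Cipc flox/flox. With 1 library per genotype no difference below has a replicate check, no p-value was computed, and every interval covers counting error only. Cipc itself had 594 counts in Cipc scko cells against 1907 in Cipc flox/flox cells. The libraries also differed in sex-linked genes, with Xist at 4 counts in Cipc scko cells against 3898 in Cipc flox/flox cells and the Y-linked Ddx3y at 511 counts in Cipc scko cells against 0 in Cipc flox/flox cells, so sex cannot be told apart from genotype in any value below. Of 9 satellite cell markers 7 had a row in the count table, 2 of them higher in Cipc scko and 0 lower, and they summed to 3511 CPM (counts scaled to library size with TMM) in Cipc scko cells against 1945 CPM in Cipc flox/flox cells. Pax7, the defining transcription factor of these cells, was the highest of them by ratio, at 62.2 CPM in Cipc scko cells against 2.54 in Cipc flox/flox cells, and Sdc4 the lowest, at 112 CPM in Cipc scko cells against 176 in Cipc flox/flox cells. All 6 myocyte markers were higher in Cipc scko, summing to 16624 CPM in Cipc scko cells against 73.4 in Cipc flox/flox cells. By ratio they ran from Mymk, needed for myoblast fusion, at 10714 counts in Cipc scko cells against 351 in Cipc flox/flox cells, to the embryonic myosin Myh3, at 15785 counts in Cipc scko cells against 6 in Cipc flox/flox cells. Calls of higher or lower needed a difference of at least 2-fold in scaled level and a 95% counting interval that excluded equality. Among all 12874 genes with enough counts to be compared, 21.2% were called higher in Cipc scko and 15.9% lower.

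The sequences that set the IRG classes apart and the stretch that their promoters share are shown first, because the values below are ordered by them. Coding sequences from GENCODE vM21 gave the nucleotide-binding loop, written 5′ to 3′ as 8 codons with the codon of the class-defining residue in capitals. In the 3 regulators this codon was ATG, for methionine, and in Tgtp1 and Tgtp2 it was AAG, for lysine. Iigp1 is placed with the effectors from its known class.
Irgm1: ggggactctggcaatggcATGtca
Irgm2: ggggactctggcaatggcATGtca
Igtp: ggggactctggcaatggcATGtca
Tgtp1: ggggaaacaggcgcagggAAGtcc
Tgtp2: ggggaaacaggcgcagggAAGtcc

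The stretch of 24 bases was the same in the 3 regulators, although their whole coding sequences were only 65.3% identical between Irgm1 and Irgm2, 66.8% between Irgm1 and Igtp and 69.7% between Irgm2 and Igtp. Tgtp1 and Tgtp2 were 99.7% identical over 1248 coding bases, so that short reads from these genes cannot be assigned with certainty. All 4 GBP genes had a lysine codon at the matching place.

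Promoter windows of 300 bases, 250 before and 50 after the start site (RefSeq, GRCm38.p6), were matched for 9 of the 10 genes, those other than Iigp1. A pair of interferon motifs was searched on both strands, and matches could overlap: the interferon-stimulated response element (ISRE) as GAAA, any 2 bases and GAAA again, which is bound by factors of the IRF family, and the interferon gamma activated site (GAS) as TTCNNNGAA. The ISRE letters were present in a window of all 9 genes, against 3.44% of 32851 mouse promoter windows. The members were counted by gene and the background by window, and another window of Gbp3 held no ISRE letters. The GAS letters were present in 6 of the 9, against 8.30% of windows. The letters CACGTG, the E-box bound by CLOCK and BMAL1, were present in 0 of the 9, against 7.15% of windows. Of 6 further IRG and GBP genes with a window, 3 held the ISRE letters, 1 the GAS letters and 0 the E-box letters. A match is a run of letters and not a measured binding site. The 30 bases around the ISRE match nearest to the start site follow, 5′ to 3′ in the direction of the gene, with ISRE and GAS letters in capitals. In the 4 GBP genes the ISRE letters lay on the opposite strand and so read as TTTC, 2 bases and TTTC.
Irgm1 (chr11:48871425-48871454, minus strand): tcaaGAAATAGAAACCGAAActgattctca
Irgm2 (chr11:58214898-58214927, plus strand): ccatTTCCAGGAActGAAACTGAAAgctgt
Igtp (chr11:58199507-58199536, plus strand): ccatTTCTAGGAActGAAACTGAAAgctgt
Tgtp1 (chr11:48992309-48992338, minus strand): ccatTTCCAGGAAtcGAAACTGAAAcctac
Tgtp2 (chr11:49064268-49064297, minus strand): ccatTTCCAGGAAtcGAAACCGAAAcctac
Gbp2 (chr3:142620594-142620623, plus strand): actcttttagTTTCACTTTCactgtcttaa
Gbp3 (chr3:142559995-142560024, plus strand): acagTTTCAGTTTCTATTTCccagatccct
Gbp5 (chr3:142496759-142496788, plus strand): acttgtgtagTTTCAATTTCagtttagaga
Gbp7 (chr3:142530273-142530302, plus strand): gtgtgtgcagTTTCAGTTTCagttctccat

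In Irgm2, Igtp, Tgtp1 and Tgtp2 a GAS match stood directly before the ISRE match, with 2 bases between them. Irgm1 and Gbp3 had 2 overlapping ISRE matches each. The ISRE match began between 24 bases (Irgm1) and 77 bases (Tgtp1) before the start site, except in Gbp5, where it began 165 bases before it. Igtp and Irgm2 are neighbours on chromosome 11, and their 250 bases before the start were 68.9% identical when aligned with gaps. Start sites here are those of RefSeq, and the gene positions given below are GENCODE spans, which can begin elsewhere. The printed stretches of Irgm1, Irgm2, Tgtp1 and Gbp5 lie inside their GENCODE spans, and that of Gbp2 does in part. The last 100 bases before each RefSeq start show the shared block in its setting.
Igtp (chr11:58199456-58199555, plus strand): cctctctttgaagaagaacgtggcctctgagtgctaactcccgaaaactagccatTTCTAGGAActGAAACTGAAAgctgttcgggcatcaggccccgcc
Irgm2 (chr11:58214877-58214976, plus strand): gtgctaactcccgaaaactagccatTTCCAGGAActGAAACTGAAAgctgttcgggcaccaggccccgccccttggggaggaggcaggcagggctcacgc

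All 10 GTPase genes were higher in Cipc scko, and 9 of them were at 10 counts or fewer in Cipc flox/flox. Together they took 105365 counts in Cipc scko, or 0.626% of the library (exact binomial 95% interval 0.622 to 0.630%), and 456 counts in Cipc flox/flox, or 0.00282% (0.00257 to 0.00310%). The summed level was 244-fold higher in Cipc scko (222 to 268). All 10 passed the filter on low counts, and the median of their log2 ratios (Cipc scko divided by Cipc flox/flox) was 11.94, or 10.81 with genes at 0 counts set to the bound that 3 counts would give, against 0.0062 over all genes compared. The 10 of 10 called higher stand beside the 21.2% of all genes, and at a limit of 4-fold the 10 of 10 stand beside 12.5% higher and 6.68% lower. 3 of the 10 had 0 counts in Cipc flox/flox with at least 1000 in Cipc scko, a pattern shown by 33 genes or 0.256%. These genes were chosen for being high, so nothing is read from that contrast. In RNA from bulk cells, more cells of a type and more RNA per cell cannot be told apart.

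**Figure D1:**
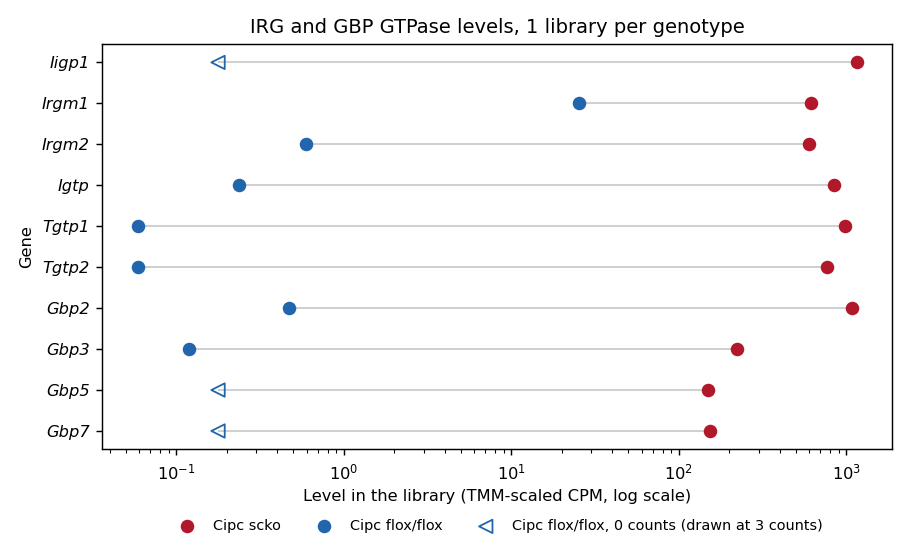
Level of each GTPase gene in TMM-scaled CPM on a log axis, with Cipc scko in red and Cipc flox/flox in blue, 1 library each; open triangles stand for 0 counts and are drawn at the level of 3 counts. The Cipc scko values lie between 149 and 1152 CPM, and Irgm1 alone is above 1 CPM in Cipc flox/flox.

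The regulators differed most among themselves in the Cipc flox/flox library. Irgm1 (ENSMUSG00000046879, GRCm38 chromosome 11, 48861968 to 48871683), which in mice protects cell membranes and is needed for resistance to intracellular bacteria, had 9881 counts (615 CPM) in Cipc scko cells against 430 (25.4 CPM) in Cipc flox/flox cells. Its log2 ratio was 4.60 (95% counting interval 4.46 to 4.74), a 24.2-fold higher level (22.0 to 26.7). Irgm2 (chromosome 11, 58199618 to 58222782) had 9659 counts (602 CPM) in Cipc scko cells against 10 (0.591 CPM) in Cipc flox/flox cells, a 1018-fold higher level (553 to 2124). Igtp (chromosome 11, 58199556 to 58207591), also called Irgm3, had 13482 counts (839.8 CPM) in Cipc scko cells against 4 (0.236 CPM) in Cipc flox/flox cells, a 3553-fold higher level (1388 to 13044). In Cipc scko the 3 regulators lay between 602 and 839.8 CPM, whereas in Cipc flox/flox Irgm1 was far above the others. CPM is not scaled for gene length, and levels per length are given further below. Irgm1 held 94.3% of all counts of the 10 genes in Cipc flox/flox (exact interval 91.8 to 96.2%), against 9.38% in Cipc scko (9.20 to 9.56%). Its log2 ratio had an upper limit of 4.74, under the lower limit of each of the other 9 genes, the nearest being 9.03 for Gbp3. Without Irgm1 the other 9 genes summed to 95484 counts in Cipc scko cells against 26 in Cipc flox/flox cells, a 3872-fold higher level (2642 to 5928). Igtp and Irgm2 overlap on the same strand in the annotation, so reads in the shared part could have gone to either.

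The effectors had next to no counts in Cipc flox/flox. Iigp1 (ENSMUSG00000054072, chromosome 18, 60376027 to 60392634), also called Irga6 and known as a leading effector against Toxoplasma vacuoles, had 18498 counts in Cipc scko cells against 0 in Cipc flox/flox cells. It stood at 1152 CPM in Cipc scko, 6501-fold above a floor of 3 counts, which is 0.177 CPM in Cipc flox/flox. The lower counting limit was 5286-fold. Tgtp1 (chromosome 11, 48985327 to 48994172) and Tgtp2 (chromosome 11, 49057194 to 49064206), both known as Irgb6, had 15706 and 12270 counts in Cipc scko cells against 1 count each in Cipc flox/flox cells. As near-identical copies they were read as a sum, 27976 counts in Cipc scko cells against 2 in Cipc flox/flox cells, a ratio of 14747 with a counting interval of 4082 to 121780. Their loci overlap Olfr56 on the opposite strand, which had 249 counts in Cipc scko cells against 1 in Cipc flox/flox cells. Tgtp1 also overlaps Gm12185 on its own strand, which had 4247 counts in Cipc scko cells against 0 in Cipc flox/flox cells. Whether counting used strand is not stated by the sources used here.

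The 4 GBP genes lie in 1 cluster on chromosome 3 and had 8 counts or fewer each in Cipc flox/flox. Gbp2 (ENSMUSG00000028270, 142620602 to 142638008), which is recruited to parasite vacuoles and to bacteria, had 17436 counts (1086 CPM) in Cipc scko cells against 8 (0.473 CPM) in Cipc flox/flox cells, a 2298-fold higher level (1166 to 5323). Gbp3 (142560026 to 142573209) had 3575 counts (223 CPM) in Cipc scko cells against 2 (0.118 CPM) in Cipc flox/flox cells, a ratio of 1885 with an interval of 521 to 15567. Gbp5 (142493978 to 142522344), known in mice for promoting inflammasome assembly, had 2400 counts in Cipc scko cells against 0 in Cipc flox/flox cells. That is 843-fold above the floor of 3 counts, with a lower counting limit of 685-fold. Gbp7 (142530342 to 142550149), known from mouse macrophages for its part in host defence, had 2458 counts in Cipc scko cells against 0 in Cipc flox/flox cells. That is 864-fold above the floor of 3 counts, with a lower counting limit of 702-fold. Summed, the 4 genes stood at 1611 CPM in Cipc scko cells against 0.591 CPM in Cipc flox/flox cells. The 6 IRG genes stood at 4952 CPM in Cipc scko cells against 26.3 in Cipc flox/flox cells.

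The GBP genes differ in the coding end, where a lipid anchor can be attached. The last 7 codons, stop codon included, are given 5′ to 3′ with a cysteine codon in the place of a lipid-anchor signal in capitals.
Gbp2: gggaagTGCactatactctga
Gbp5: catgacTGTgttataagctaa
Gbp3: ctcggctcactaagtagttag
Gbp7: gacaaagttagaaaactctaa

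Gbp2 and Gbp5 carried that cysteine codon, and Gbp3 and Gbp7 did not. Each pair held 1 gene at 0 counts in Cipc flox/flox. Coding identity was highest between Gbp3 and Gbp7, at 77.3%, and next between Gbp2 and Gbp5, at 69.0%. Tgtp1 and Tgtp2 were the only pair of the 10 genes whose transcripts matched each other at 95% identity over 80% of the shorter one.

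Within the Cipc scko library, levels per length were read from the deposited FPKM values (counts scaled for gene length and library size). Gbp2 was highest at 366 FPKM (exact Poisson 95% interval 361 to 372) and Iigp1 next at 352 FPKM (347 to 357). Tgtp1 and Tgtp2 followed at 245 and 229 FPKM, and Igtp at 156 FPKM. Irgm2 at 82.8 FPKM (81.2 to 84.5) and Irgm1 at 80.4 FPKM (78.8 to 82.0) were the only neighbours in this order whose counting intervals overlapped. These intervals do not cover the uncertain split of reads between Tgtp1 and Tgtp2 or between Igtp and Irgm2, so the order within each pair is not settled. Gbp3, Gbp7 and Gbp5 were lowest, at 35.0, 22.3 and 14.3 FPKM. The highest 2, Gbp2 and Iigp1, ranked 110 and 114 among the 12874 genes compared in that library, and Gbp5 ranked 3150. In Cipc flox/flox Irgm1 was at 3.65 FPKM, and each of the other genes was at or below the 0.175 FPKM of Gbp2.

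**Figure D2:**
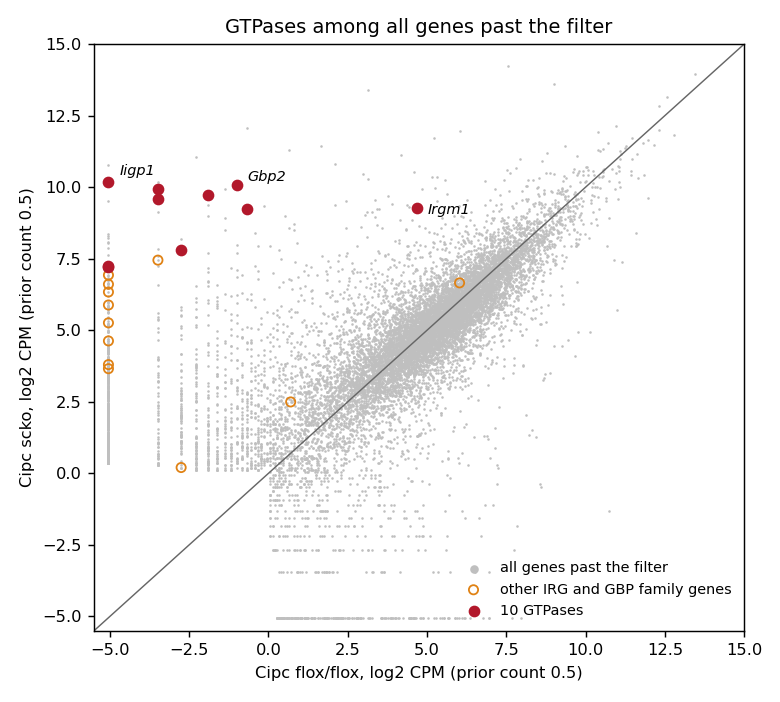
Level of every gene past the filter in Cipc scko (vertical axis) against Cipc flox/flox (horizontal axis), in log2 CPM with a prior count of 0.5, which places genes at 0 counts along the edges; the diagonal marks equal levels. The 10 GTPases (red) sit at the upper left, with Irgm1 to the right of the others at 615 CPM in Cipc scko cells against 25.4 CPM in Cipc flox/flox cells, and the other family genes with enough counts are drawn as orange circles.

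Most other genes of the 2 families that could be compared were also called higher. Of 16 further IRG and GBP genes listed, 14 had a row in the count table and 12 passed the filter. Of those 12, 11 were higher in Cipc scko, 0 were lower, and Irgq did not reach 2-fold. Among all genes compared, 21.2% were called higher and 15.9% lower. A gene at 0 in Cipc flox/flox passes the filter only through its counts in Cipc scko, so this count is a description. The GBP cluster of chromosome 5 (105014150 to 105346472) held 6 of the 11. Gbp4 had 2805 counts in Cipc scko cells against 1 in Cipc flox/flox cells, and Gbp6, Gbp10, Gbp9, Gbp8 and Gbp11 had 1953, 1563, 1296, 396 and 202 counts in Cipc scko cells against 0 in Cipc flox/flox cells. Those at 0 counts stood from 686-fold (Gbp6) down to 71.0-fold (Gbp11) above the floor of 3 counts. The lower counting limits of these 2 genes were 558-fold and 57.2-fold. Gbp11 is annotated as a polymorphic pseudogene. Gbp4, Gbp8 and Gbp9 overlap one another in the annotation, so their separate values are uncertain. Gbp6 and Gbp10 each overlap Gm43302 on the same strand, so their values are uncertain too. Gm43302 had 1414 counts in Cipc scko cells against 0 in Cipc flox/flox cells. Near Iigp1 on chromosome 18, Gm4841, Gm4951 and F830016B08Rik had 946, 614 and 223 counts in Cipc scko cells against 0 in Cipc flox/flox cells. Within the chromosome 11 cluster, 9930111J21Rik2 had 90 counts in Cipc scko cells against 27 in Cipc flox/flox cells, a log2 ratio of 1.79 (1.18 to 2.49). 9930111J21Rik1 had 18 counts in Cipc scko cells against 2 in Cipc flox/flox cells. Irgq, an IRG relative that is not known as an interferon-response gene, stood at 100.7 CPM in Cipc scko cells against 65.1 in Cipc flox/flox cells, a log2 ratio of 0.63 (0.52 to 0.74).

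2 family genes were too low to be compared. Gm5431, between Irgm1 and Tgtp1, had 18 counts in Cipc scko cells against 0 in Cipc flox/flox cells. Gbp2b lies between Gbp3 and Gbp2 (chromosome 3, 142594847 to 142619179) and encodes the protein called GBP1 in mice. It had 0 counts in Cipc scko cells against 4 in Cipc flox/flox cells, while its neighbours Gbp3 and Gbp2 had 3575 and 17436 counts in Cipc scko. For scale, the floor of 3 counts is 0.187 CPM in Cipc scko.

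Genes beside these clusters were called in both directions. For each of 5 clusters the 3 nearest genes past the filter on either side were taken, 30 in all. They lay up to 2002 kb from their cluster. Of these, 8 were called higher, 3 lower and 19 neither (median log2 ratio 0.17), beside 21.2% higher and 15.9% lower among all genes. The nearest gene on each side is given for each cluster. Beside the chromosome 3 cluster, Pdlim5 had a log2 ratio of -0.37 and Kyat3 one of 2.63 (2.20 to 3.11). Beside the chromosome 5 cluster, Zfp951 had a log2 ratio of 2.43 and the volume-regulated channel gene Lrrc8b one of -1.09. Next to Irgm1, Trim7 lay 9.76 kb away with 169 counts in Cipc scko cells against 152 in Cipc flox/flox cells, a log2 ratio of 0.23 (-0.10 to 0.55). Beyond Tgtp2, at 12.4 kb, Ifi47, itself an IRG gene also known as Irgd, had 3958 counts in Cipc scko cells against 17 in Cipc flox/flox cells, a log2 ratio of 7.90. It was not on the family list, was named for its position and is among the 8 flanking genes called higher. Beside Igtp and Irgm2, Mrpl22 and Zfp692 had log2 ratios of -0.34 and 0.47. Beside the Iigp1 cluster, Chsy3 at 676 kb had 21 and BC023105 at 49.1 kb had 66 counts in Cipc scko cells, against 0 for each in Cipc flox/flox cells.

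**Figure D3:**
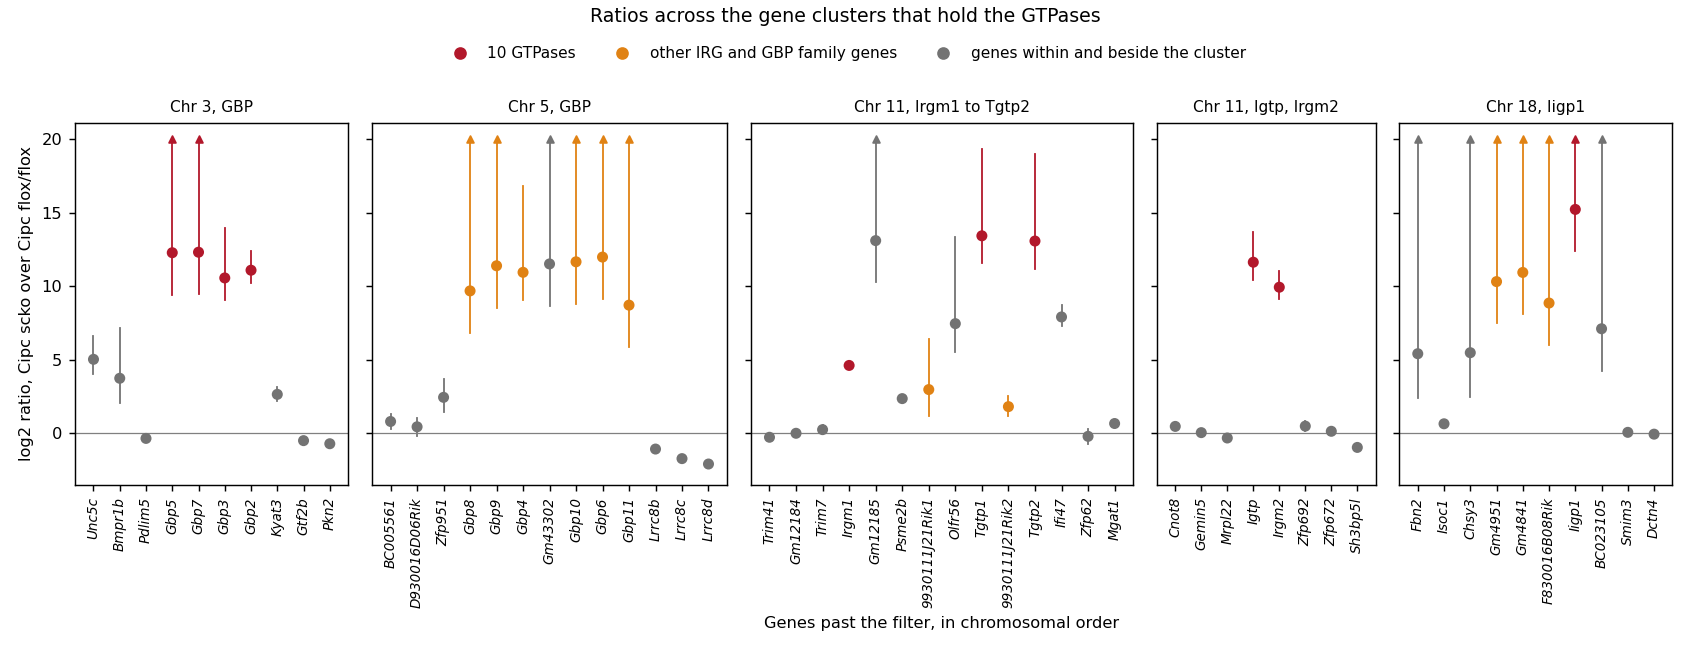
Log2 ratio (Cipc scko divided by Cipc flox/flox) with 95% counting intervals for genes past the filter in and beside 5 clusters, in chromosomal order; intervals ending in a triangle have no upper limit because Cipc flox/flox had 0 counts. The GTPases (red) and the other family genes (orange) lie above 8, apart from Irgm1 at 4.60, 9930111J21Rik1 and 9930111J21Rik2, and several flanking genes (grey) lie near 0. Grey also marks genes inside the clusters that were not on the family list, with log2 ratios from 2.34 to 13.09.

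Genes that carry the interferon signal to these promoters were mostly higher among the transcription factors and feedback inhibitors, and within 2-fold for 3 of 4 receptor chains and all 3 kinases. Of 20 listed genes 18 had a row and all 18 passed the filter, with 12 higher in Cipc scko, 0 lower and 6 within 2-fold (median log2 ratio 2.30). These counts stand beside 21.2% higher and 15.9% lower among all genes. The receptor chains for interferon gamma, Ifngr1 and Ifngr2, stood at 22.1 and 45.9 CPM in Cipc scko against 26.2 and 52.1 CPM in Cipc flox/flox. The receptor kinases Jak1, Jak2 and Tyk2 differed by log2 ratios of -0.45, 0.10 and -0.81. Of the type I receptor chains, Ifnar2 was higher, at 53.3 CPM in Cipc scko cells against 22.1 in Cipc flox/flox cells, and Ifnar1 was within 2-fold, at 49.9 CPM in Cipc scko cells against 64.3 in Cipc flox/flox cells.

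The transcription factors named here were higher. Irf1, an interferon-induced factor that drives Gbp genes, stood at 203 CPM in Cipc scko cells against 13.5 in Cipc flox/flox cells (log2 ratio 3.90, 3.71 to 4.11). Stat2 and Irf9, which act in type I interferon signalling, stood at 177.5 and 92.8 CPM in Cipc scko cells against 44.2 and 10.2 CPM in Cipc flox/flox cells. Irf8, best known from myeloid and B cells, had 1536 counts in Cipc scko cells against 1 in Cipc flox/flox cells. The class II and class I transactivators Ciita and Nlrc5 had 599 and 3179 counts in Cipc scko cells against 0 and 78 in Cipc flox/flox cells. Batf2, an interferon-induced AP-1 family factor, had 197 counts in Cipc scko cells against 0 in Cipc flox/flox cells. The feedback inhibitors Socs1 and Socs3 were higher too, at 28.1 and 247.7 CPM in Cipc scko cells against 4.61 and 21.2 CPM in Cipc flox/flox cells. The ligand genes Ifng and Ifnb1 had no row in the count table and were not analysed here.

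**Figure D4:**
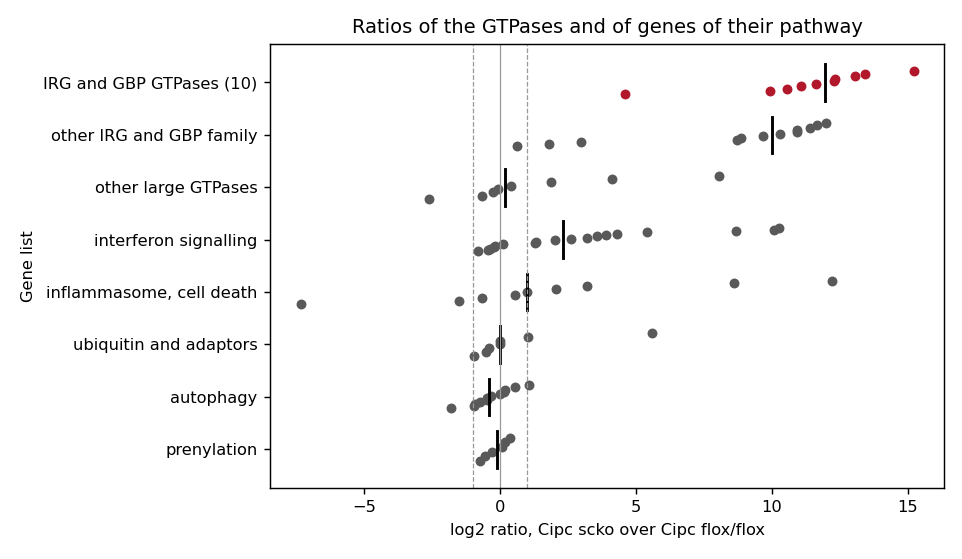
Log2 ratio (Cipc scko divided by Cipc flox/flox) for each gene past the filter in the GTPase set (red) and in lists of related genes (grey); black bars are list medians and dashed lines mark 2-fold. The GTPases have a median of 11.94, the interferon signalling genes 2.30, the autophagy genes -0.40 and the prenylation genes -0.12.

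Genes linked to loading IRGs and GBPs onto vacuoles, or to attaching their lipid, were mostly called neither higher nor lower. So were 8089 of all 12874 genes compared, with 21.2% called higher and 15.9% lower. Of 12 autophagy genes, some of which in mice are needed to bring the GTPases to vacuoles, 1 was higher, 1 was lower and 10 were within 2-fold (median log2 ratio -0.40). The conjugation genes Atg3, Atg5, Atg7, Atg12 and Atg16l1 lay between -0.48 and 0.17. The selective autophagy receptor Sqstm1, known as p62, was lower, at 489 CPM in Cipc scko cells against 1720 CPM in Cipc flox/flox cells (-1.81, -1.85 to -1.78), and Map1lc3a was higher (1.05). Of 7 ubiquitin ligase and adaptor genes 2 were higher and 0 lower. Trim21, a ubiquitin ligase that is itself interferon-inducible, had 436 counts in Cipc scko cells against 9 in Cipc flox/flox cells, and Calcoco1 had a log2 ratio of 1.02. The lowest of the list was the conjugating enzyme Ube2n, at -0.96. The 6 prenylation genes, among them the farnesyltransferase subunits Fnta and Fntb and the related transferase subunit Pggt1b, had 0 higher and 0 lower, with log2 ratios from -0.76 for Zmpste24 to 0.36 for Fntb.

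Inflammasome and cell death genes, through which GBPs are known to act on bacteria, went both ways. Of 11 listed genes 10 had a row and 9 passed the filter, with 4 higher in Cipc scko and 2 lower. Among all genes compared, 21.2% were called higher and 15.9% lower. The nucleic acid sensor Zbp1 had 2319 counts in Cipc scko cells against 0 in Cipc flox/flox cells, and the adaptor Pycard had 190 counts in Cipc scko cells against 0 in Cipc flox/flox cells. The lipopolysaccharide-sensing caspase Casp4 had 204 counts in Cipc scko cells against 23 in Cipc flox/flox cells, and the pore-forming Gsdmd had 1816 counts in Cipc scko cells against 459 in Cipc flox/flox cells. The DNA sensor Aim2 went the other way, with 0 counts in Cipc scko cells against 83 in Cipc flox/flox cells, and Casp1 had 7 counts in Cipc scko cells against 22 in Cipc flox/flox cells. Ripk3, Mlkl and Il18 were within 2-fold.

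Markers of other cell types were also read in both libraries. Of 10 macrophage and monocyte markers 6 had a row, and these summed to 6.54 CPM in Cipc scko cells against 47.6 CPM in Cipc flox/flox cells. 3 of them passed the filter, with 1 higher and 2 lower. Csf1r, the receptor that macrophages need for survival, was higher, with 37 counts in Cipc scko cells against 9 in Cipc flox/flox cells. Cd68 and Cd14 made up most of that sum in Cipc flox/flox, with 30 and 23 counts in Cipc scko against 425 and 356 counts there. Ptprc, Adgre1, Itgam and Fcgr1 had no row in the count table. Of 6 endothelial markers 4 had a row, summing to 8.22 CPM in Cipc scko cells against 0.886 in Cipc flox/flox cells. Kdr, a receptor for vascular growth factor and the only marker past the filter, was higher, with 112 counts in Cipc scko cells against 2 in Cipc flox/flox cells. Of those not past the filter, Pecam1 had 19 counts in Cipc scko cells against 0 in Cipc flox/flox cells, and Tek had 0 counts in Cipc scko cells against 11 in Cipc flox/flox cells. Of 6 fibro-adipogenic markers 5 had a row and summed to 854 CPM in Cipc scko cells against 617 in Cipc flox/flox cells, with 1 higher, 3 lower and 1 within 2-fold. Col1a1 was the highest by ratio, with 7196 counts in Cipc scko cells against 1957 in Cipc flox/flox cells, and Cd34 the lowest, with 3 counts in Cipc scko cells against 427 in Cipc flox/flox cells. Pdgfra, their defining receptor, had 11 counts in Cipc scko cells against 147 in Cipc flox/flox cells. The myocyte markers given at the start, Pax7, Myod1, Csf1r, Kdr and Col1a1 were higher in the same library as the GTPases. Cd68, Cd14, Pdgfra, Dcn and Cd34 were lower there. The part of any cell type in the difference was not tested.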

How the data were processed

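RNA-seq of 1 Cipc scko and 1 Cipc flox/flox library was analysed. Per the file headers, the deposited values were raw counts by Ensembl identifier and, for each library, FPKM. GRCm38, StringTie 1.3.0, HISAT2 2.0.4 and CASAVA are listed, without roles, per the submitters' processing notes. Counting tool, strand setting and annotation release were not given in the sources used here. Deposited FPKM are the counts rescaled (ratio to the CPM ratio between 0.9996 and 1.0002), not a second measurement.

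Symbols and positions came from GENCODE vM21 (16116 of 16190 identifiers matched). Counts were scaled with TMM (edgeR 4.0.16, R 4.3.3). Compared genes reached 1 CPM in either library and 20 counts in total. Log2 ratios used a prior count of 0.5, and intervals were exact binomial at 95%, covering counting error only. The calling rule was run on simulated libraries that held counting error only, which cannot show how it handles differences between mice. The genes and lists were chosen with earlier results of these data known. Named genes were the 10 GTPases, members of the lists (at least the highest and lowest past the filter of each reported), Cipc, and the 6 genes nearest to the GTPases in level; flanking genes were the nearest on each side. Copies were sought with BLAST+ 2.17.0 at 95% identity over 80% of the shorter transcript. Alternatives were other scalings (DESeq2 1.42.0 among them), filters, priors, FPKM, a fold limit of 4 and summed Tgtp1 and Tgtp2. A list of lymphocyte markers and 1 interferon signalling gene are not reported here.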

Additional observations from a re-analysis of the deposited data

How the results depend on the processing

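The 10 GTPases were higher in Cipc scko under each alternative in which all were kept apart, and the 9 features left after summing Tgtp1 and Tgtp2 were higher too. Their median log2 ratio of 11.94 became 9.41 with FPKM and a pseudocount of 0.1 and 6.75 with a pseudocount of 1, because a pseudocount limits the ratio of genes near 0. Under the other alternatives run on it the median lay between 9.92 (a prior count of 5) and 11.97 (upper quartile scaling). None of 61 alternative ratios of single GTPases changed sign, and they ranged from 3.93 to 15.23. The lowest was Gbp5 with FPKM and a pseudocount of 1. It lay below Irgm1 at 4.13 there, so the place of Irgm1 as the lowest ratio depended on the setting. Among further IRG and GBP genes the number higher was between 9 and 12, and among interferon signalling genes between 10 and 12. With scaling by total counts the median over all genes was -0.13 in place of 0.0062, and 2491 genes were called higher and 2416 lower, beside 2732 and 2053. A fold limit of 4 left 1608 higher and 860 lower, which are 12.5% and 6.68% of genes, and FPKM with a pseudocount of 1 gave 1479 higher and 1502 lower. No paired analysis was possible because each genotype has 1 library, and leaving out a replicate was not possible for the same reason. Depth limits the Cipc flox/flox side, where 9 of the 10 genes had 10 counts or fewer.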

Other observations

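Other large GTPases did not share one direction. Of 9 listed genes 8 passed the filter, with 3 higher in Cipc scko, 1 lower and 4 within 2-fold. These counts stand beside 21.2% higher and 15.9% lower among all genes. Gvin1, a very large interferon-inducible GTPase, had 128 counts in Cipc scko cells against 0 in Cipc flox/flox cells. That is 45.0-fold above the floor of 3 counts, with a lower counting limit of 36.1-fold. Mx2, of the antiviral Mx family but annotated as a polymorphic pseudogene, had 41 counts in Cipc scko cells against 2 in Cipc flox/flox cells. Mx1 had 4 counts in Cipc scko cells against 0 in Cipc flox/flox cells. The atlastins, which share a GTPase fold with the GBPs and shape the endoplasmic reticulum, had log2 ratios of 1.86 for Atl1, 0.40 for Atl2 and -0.67 for Atl3. Dynamin 1 (Dnm1) was lower, at 10.1 CPM in Cipc scko cells against 61.6 CPM in Cipc flox/flox cells.

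The 6 genes nearest to the mean of the 10 GTPases in log2 CPM, measured as the distance over both libraries, were Tap1, Psmb8, Mb, H2-Ab1, Actn2 and H2-Eb1, at distances from 0.47 to 1.13. With only 2 libraries this likeness rests on a pair of values per gene. Tap1, a peptide transporter subunit, had 8259 counts in Cipc scko cells against 4 in Cipc flox/flox cells, and the immunoproteasome subunit Psmb8 had 10723 counts in Cipc scko cells against 4 in Cipc flox/flox cells. Myoglobin (Mb) and the sarcomere gene Actn2 had 4702 and 9062 counts in Cipc scko cells against 2 and 1 in Cipc flox/flox cells.

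Across genes with a promoter window, 366 that passed the filter held the ISRE letters, and 35.0% of them were called higher in Cipc scko, against 20.3% of all 9867 genes with a window. For the GAS letters the share was 19.9% of 813 genes, and for the E-box letters 16.5% of 1177 genes. The GTPases are among the genes counted, and these shares carry no test.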
